A study of Mus musculus with 2 samples.

Results

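The colony-stimulating factors and their receptors were examined cell type by cell type in colitis-associated colon tumors (CACs) of mice, to see which cells carried the ligand mRNAs and which the receptor mRNAs. The 8 genes were taken by name from a table of 32291 genes. They are the ligands Csf1, Il34, Csf2 and Csf3, and the receptor genes Csf1r, Csf2ra, Csf2rb and Csf3r. All 8 had UMIs (unique molecular identifiers, each standing for 1 captured RNA molecule) in both libraries.

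The study made 1 single-cell RNA library per genotype from tumors of 3 pooled female C57Bl/6 mice, to see what loss of the microRNA gene Mir34a in myeloid cells does to these tumors. The control library is labelled Mir34a_F/F and came from littermates with loxP-flanked Mir34a. The other is labelled Mir34a_Mye_KO, in which the same floxed alleles were combined with LysM-Cre, a Cre recombinase driven by the lysozyme promoter of macrophages and neutrophils. Mice of both genotypes were injected with azoxymethane, a colon carcinogen, at 10 mg/kg and an age of 6 to 10 weeks. They then drank dextran sodium sulfate, which injures the colon epithelium, at 2.5% in the first and second and at 2% in the third period, each lasting 5 days. Mice were killed on day 110, and about 30000 cells from 6 to 8 tumors were loaded per library. Since each genotype was 1 pooled library, differences between the libraries have no replicate check and no test, and a difference between genotypes, between pools of mice and between library preparations cannot be told apart. LysM-Cre acts in macrophages, neutrophils and some other myeloid cells, so that deletion of Mir34a in the other cell types of this library is not part of the design.

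The table held 20312 cells in the Mir34a_F/F library and 18571 in the Mir34a_Mye_KO library, each with 1 of 11 cell types assigned by the authors. The Mir34a_Mye_KO cells were deeper, with a median of 7716 UMIs against 4787, and the ratio of the median depths ran from 1.11 in endothelial cells to 5.69 in B cells. The libraries shared 96 barcodes among 38883 cells. The summed markers of every cell type were highest in the type that bears the name, in both libraries. The added features for the miR-34a hairpin, stem loop and mature sequence had 0 UMIs in macrophages of either library, and the primary transcript feature had 133 and 462, or levels of 0.0723 and 0.111 UMIs per 10000, so that these features did not settle the genotype and the libraries are called by their labels.

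Colony-stimulating factors are secreted proteins that keep myeloid cells alive and drive their growth and maturation. Csf1 (M-CSF) and Il34 are both ligands of Csf1r, a receptor tyrosine kinase on which most tissue macrophages depend. Csf2 (GM-CSF) binds a specific alpha chain, Csf2ra, that signals only together with the beta chain Csf2rb, which the receptors for interleukin-3 and interleukin-5 use as well. Csf3 (G-CSF) acts through Csf3r and drives the formation and release of neutrophils. In the colon, macrophages and neutrophils enter inflamed and tumor tissue in large numbers.

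The microRNA deleted in this study and the stretches of DNA that bear on these genes are printed 5′ to 3′, from RefSeq on GRCm38.p6 and, for the 3′ UTR, from GENCODE M21 on GRCm38. In miR-34a-5p (chr4:150068473-150068494, plus strand) capitals mark the seed, bases 2 to 8. In the 3′ UTR of Csf1 (chr3:107741181-107741205, minus strand) they mark the 7 bases complementary to that seed, which begin at base 1969 of 2114 in the UTR. In the promoters of Csf2ra (chr19:61228415-61228443, minus strand) and Csf3r (chr4:126024562-126024590, plus strand) they mark GAGGAAG, a motif of the type bound by PU.1, a transcription factor of the myeloid lineages. In the promoter of Csf2 (chr11:54250026-54250055, minus strand) they mark a match to TTGCNNAA, the type bound by C/EBP factors.
mmu-miR-34a-5p: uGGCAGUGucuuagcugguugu
Csf1 3′ UTR: gctcagagggagCACTGCCtcacaa
Csf2ra promoter: aacctgcagatGAGGAAGaggaagcggga
Csf3r promoter: ctccttcctgaGAGGAAGgggctgtctat
Csf2 promoter: gtaggtagagcTTGCCCAAaggcctccagg

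Of the 8 genes, Csf1 and 1 of the receptor genes had a 7-base match to the seed in their annotated 3′ UTRs, that is 2 of 8, beside 14.3% of 21022 genes with an annotated 3′ UTR (2999 genes). The receptor gene with a match was Csf1r, with 1 match in a 3′ UTR of 1672 bases. Promoters, taken from 250 bases before to 50 bases after the start, were at hand for Csf1, Csf2, Csf2ra and Csf3r. The start is that of the RefSeq entry, which lies at the 5′ end of the GENCODE gene for Csf1, but 109 bases downstream of it for Csf3r, 11 downstream for Csf2ra and 232 upstream for Csf2. Searched on both strands, GAGGAAG was present in Csf2ra, as 2 overlapping matches at positions -14 and -8 from the RefSeq start, and in Csf3r at position -86, which lies inside the GENCODE gene. It was absent from the windows of Csf1 and Csf2, and present in 13.6% of 32851 promoters. TTGCNNAA was found only in Csf2 among these 4, at position -145, and in 10.8% of all promoters. Each match is a description of letters and no measure of binding.

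Levels are given as the mean over the cells of a type of each cell's UMIs per 10000 UMIs, with the Mir34a_F/F library first and the Mir34a_Mye_KO library second. Intervals are 95% intervals and cover counting error only. A level near that of cells that should lack the gene can come from free RNA. Shares of cells with a UMI are therefore given after each cell was thinned to 1000 UMIs, beside B cells for the ligands and T cells for the receptors. B cells had median depths of 3664 and 20852 UMIs. Their summed epithelial markers were 23.2 and 10.3, beside 26.3 and 14.8 in T cells. The B cell value was the lowest of all cell types in the Mir34a_Mye_KO library. In the Mir34a_F/F library macrophages and dendritic cells were lower. Whether B cells understate the free RNA of other cell types was not tested. Shares of cells come from 1 random draw, and ratios of thinned cells with their drawn UMIs from another, so these do not match count for count. Ratios that rest on few drawn UMIs are also given averaged over all possible draws. Shares of cells were not averaged over draws. UMIs came from a 3′ kit and no length correction was made. Levels of different genes are not compared as amounts of RNA. A gene given as a percent of marker genes serves only to set cell types side by side. The plot of levels by cell type shows where each gene was highest.

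**Figure D1:**
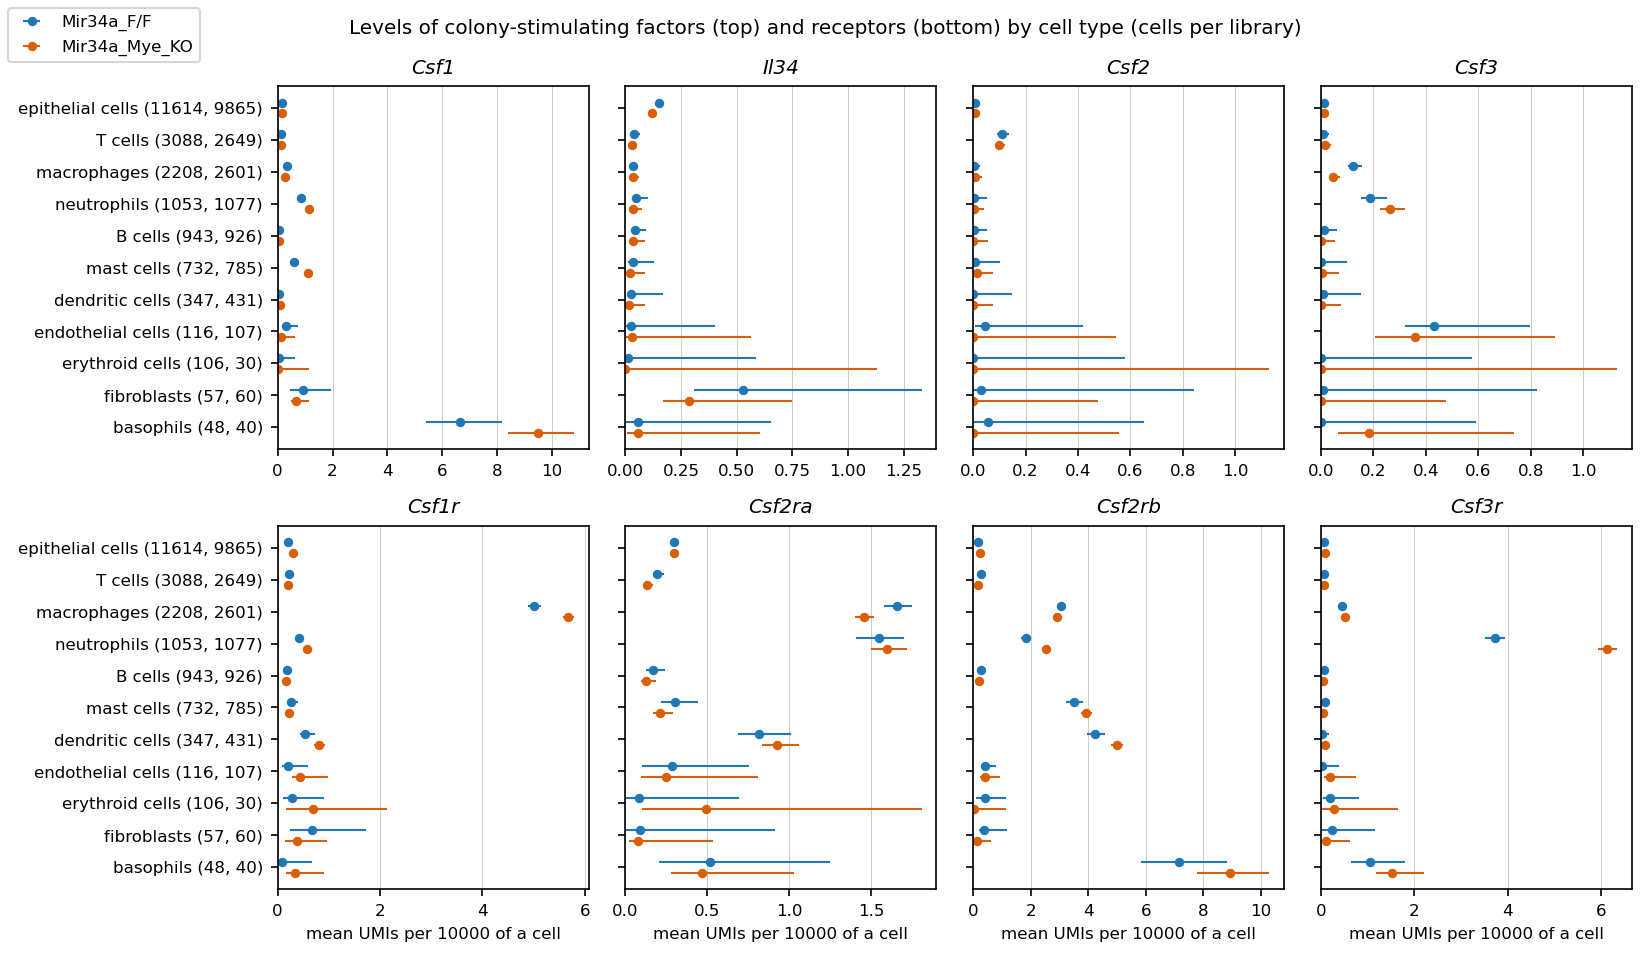
Levels of the 4 ligands (top) and the 4 receptor genes (bottom) in the 11 cell types. Points give mean UMIs per 10000 of a cell on a linear axis that differs between panels, bars give the 95% counting interval, colors give the library, and numbers in brackets give the cells per library. Csf1r stood at 5.01 and 5.68 in macrophages and Csf3r at 3.72 and 6.13 in neutrophils, while bars were wide in cell types with few cells.

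Among the ligands, Csf1 (chr3:107741048-107760469, minus strand, GRCm38) was found in many cell types. Basophils, effector cells of allergy and worm defense, had the highest level, 6.63 (5.41 to 8.18) and 9.49 (8.41 to 10.8). These values rested on 48 and 40 cells with 122 and 340 UMIs, and in the Mir34a_Mye_KO library 10 cells held 82.1% of them. Neutrophils came next among cell types with at least 100 cells in each library. Their Csf1 level was 0.836 (0.730 to 0.964) and 1.14 (1.05 to 1.25). Mast cells had 0.579 (0.470 to 0.738) and 1.09 (1.01 to 1.20). The order of neutrophils and mast cells differed beyond counting error in the Mir34a_F/F library, by 0.53 (0.18 to 0.89) on the log2 scale, but 0.38 (0.04 to 0.74) in cells of at least 1000 UMIs, averaged over all draws of 1000, and -0.02 in 1 draw with 78 and 53 UMIs. In the Mir34a_Mye_KO library neutrophils and mast cells were not separated, with a difference of 0.06 (-0.10 to 0.23). Fibroblasts, a known stromal source of Csf1, had 0.912 (0.435 to 1.95) and 0.661 (0.483 to 1.14) in 57 and 60 cells, and did not differ from neutrophils in the Mir34a_F/F library. Macrophages had a lower level of 0.346 (0.315 to 0.387) and 0.259 (0.235 to 0.296). Epithelial cells were at 0.164 and 0.149, T cells at 0.123 and 0.121, dendritic cells at 0.0647 and 0.0728, and B cells at 0.0513 and 0.0523.

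The share of cells with a Csf1 UMI gave a like picture. At 1000 UMIs a cell, 6.14% (4.75 to 7.79) and 7.53% (6.02 to 9.27) of neutrophils had one, and 4.81% and 7.28% of mast cells. B cells, which served as background, had 0.537% (0.175 to 1.25) and 0.976% (0.447 to 1.84). Epithelial cells had 1.65% (1.42 to 1.90) and 1.36% (1.14 to 1.61), above the interval of B cells in the Mir34a_F/F library alone. T cells, at 1.07% (0.730 to 1.5) and 1.10% (0.736 to 1.57), had intervals that overlapped those of B cells. Without thinning, the share was 14.6% and 25.3% in neutrophils and 3.29% and 6.05% in B cells, at median depths of 4107 and 7330 UMIs in neutrophils and 3664 and 20852 in B cells.

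Within cell types, Csf1 was uneven. In neutrophils, cells with a UMI of Cxcr2, the chemokine receptor of mature neutrophils, had 0.426 and 0.751, against 1.20 and 1.88 in neutrophils without one. The log2 difference was -1.49 (-1.92 to -1.07) and -1.33 (-1.56 to -1.10). Neutrophils with a UMI of Ly6g, a neutrophil surface protein, were lower in Csf1 in the same way, at 0.472 and 0.619 against 1.13 and 1.59. In macrophages, cells with a UMI of Mrc1, the mannose receptor of resident-type macrophages, had more Csf1, 0.481 and 0.331 against 0.264 and 0.195. Macrophages with a UMI of Ly6c2, a marker of cells newly derived from monocytes, had 0.159 and 0.142 against 0.397 and 0.286 in those without. In epithelial cells, Csf1 was higher with a UMI of the stem cell gene Lgr5 (0.263 and 0.262 against 0.140 and 0.125). It was lower with a UMI of Krt20, a keratin of differentiated surface cells (0.112 and 0.0939 against 0.189 and 0.177).

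Il34 (chr8:110741829-110805924, minus strand) was found mainly in fibroblasts and epithelial cells. Fibroblasts had the highest level, 0.530 (0.309 to 1.33) and 0.287 (0.171 to 0.746), from 22 and 26 UMIs. Epithelial cells followed with 0.153 (0.141 to 0.168) and 0.119 (0.110 to 0.131). Basophils, with 1 and 2 UMIs, could not be separated from epithelial cells, and the other cell types lay between 0 and 0.0495. After thinning, 1.57% (1.35 to 1.83) and 1.16% (0.961 to 1.40) of epithelial cells had an Il34 UMI, against 0.644% (0.237 to 1.40) and 0.651% (0.239 to 1.41) of B cells. These intervals overlapped in both libraries. Without thinning these shares were 8.97% and 10.0% of epithelial cells and 2.65% and 4.43% of B cells, at median depths of 5316 and 6623 UMIs in epithelial cells. Epithelial cells were 57.2% and 53.1% of the cells and held 64.2% and 45.9% of the UMIs of all genes. They held 84.7% and 81.8% of all Il34 UMIs. That Il34 share was 77.4% and 45.4% when only cells with at least 500 genes and under 10% mitochondrial RNA were kept.

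Within epithelial cells, Il34 followed other markers than Csf1 did. Cells with a Krt20 UMI had an Il34 level of 0.218 and 0.211, against 0.121 and 0.0729 without, a log2 difference of 0.85 (0.62 to 1.09) and 1.53 (1.28 to 1.79). They held 62.8% and 74.1% of the epithelial Il34 UMIs while making up 33.3% and 33.4% of the cells, a share of UMIs that also carries depth, since their medians were 7804 and 11021 UMIs against 4256 and 4861 in the cells without. Cells with an Lgr5 UMI were lower in Il34, 0.112 and 0.0842 against 0.163 and 0.126. The Csf1r ligands were thus placed in opposite directions along these markers in both libraries, Csf1 with Lgr5 and Il34 with Krt20.

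Csf2 (chr11:54247271-54249667, minus strand) was sparse and came mainly from T cells. T cells had a level of 0.109 (0.0921 to 0.136) and 0.0978 (0.0864 to 0.123), from 192 and 335 UMIs in 71 and 97 cells. In the Mir34a_F/F library basophils (0.0563, 1 UMI) and endothelial cells (0.0437, 3 UMIs) came next, and T cells were not separated from basophils, 0.95 (-1.55 to 6.26). Neither had a Csf2 UMI in the Mir34a_Mye_KO library. Dendritic cells had 0 UMIs in both libraries, 0 of 347 and 0 of 431 cells, which by 3 counts allows shares of cells with a UMI of up to 0.865% and 0.696%, and sets no limit on cells that express the gene. Mast cells were at 0.00737 and 0.0147, and macrophages at 0.00407 and 0.00598. At 1000 UMIs a cell, 0.732% (0.460 to 1.11) and 0.681% (0.404 to 1.07) of T cells had a Csf2 UMI and no B cell had one, which by the limit of 3 counts allows up to 0.322% and 0.325%. Unthinned shares were 2.30% and 3.66% in T cells, at 3548 and 8043 UMIs a cell, and 0.212% and 0.108% in B cells.

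T cells held 62.7% (57.1 to 68.2) of the Csf2 UMIs in the Mir34a_F/F library and 80.5% (76.4 to 84.2) in the Mir34a_Mye_KO library. Epithelial cells held 29.7% and 8.41%. With each cell thinned to 1000 UMIs, averaged over all draws, T cells held 76.1% and 76.4%, so that no direction is given for this share. Of the 91 epithelial UMIs in the Mir34a_F/F library, found in 39 cells, 21 came from 1 cell and 68.1% from 10 cells. The epithelial level was 0.00760 and 0.00613, with overlapping intervals.

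Among T cells, Csf2 went with some markers and against others. T cells with a UMI of Gata3, a transcription factor of type 2 lymphocytes, had 0.278 and 0.143, against 0.0567 and 0.0687 without. They held 60.9% and 61.5% of the T cell Csf2 UMIs in 23.5% and 39.0% of the T cells, shares that also depend on depth. Cells with a UMI of Trdc, a segment of the gamma delta T cell receptor, had 0.204 and 0.188 against 0.102 and 0.0903. Regulatory T cells are marked by Foxp3, and cells with a Foxp3 UMI had only 0.0219 and 0.0163 against 0.124 and 0.122. That log2 difference was -2.50 (-4.14 to -1.25) and -2.90 (-3.93 to -2.02). Cells with a UMI of Cd4 (0.0480 and 0.0465 against 0.129 and 0.137) were lower too. For Il17a, the gene of interleukin-17A, the intervals held 0 in both libraries, -0.34 (-0.98 to 0.26) and -0.26 (-0.66 to 0.13).

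Csf3 (chr11:98701263-98703629, plus strand) was found in endothelial cells, neutrophils and macrophages. Endothelial cells had the highest level, 0.431 (0.320 to 0.796) and 0.357 (0.208 to 0.891), but from few cells. The 65 and 47 UMIs came from 10 and 11 cells, and a single cell held 36 and 27 of them. Neutrophils had 0.189 (0.152 to 0.252) and 0.263 (0.226 to 0.319). They did not differ from endothelial cells beyond counting error in the Mir34a_Mye_KO library, but did in the Mir34a_F/F library, by 1.19 (0.66 to 1.70) on the log2 scale. Macrophages had 0.122 (0.102 to 0.155) and 0.0458 (0.0380 to 0.0712), from 178 and 164 UMIs in 67 and 63 cells. Basophils had 0 UMIs in the Mir34a_F/F library and a level of 0.182 in the other, from 7 UMIs in 3 cells, which was above macrophages there by 1.99 (0.48 to 3.18) and not separated from neutrophils. These 3 cells also had a Csf3r UMI. Summed neutrophil markers in that library were 396 in basophils and 1039 in neutrophils. Csf3 was 0.0459% (0.0164 to 0.185) of them in basophils and 0.0253% (0.0217 to 0.0307) in neutrophils. The part of neutrophil RNA in the basophil value of Csf3 was not tested. Thinned to 1000 UMIs, 1.46% (0.821 to 2.40) and 2.42% (1.58 to 3.52) of neutrophils had a Csf3 UMI, against 0.107% of B cells in the Mir34a_F/F library and 0% (up to 0.325%, by 3 counts) in the other. The unthinned shares were 5.32% and 8.17% in neutrophils and 0.742% and 0.324% in B cells.

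Csf3 in macrophages went with markers of activated cells. Macrophages with a UMI of Arg1, arginase, had 0.226 and 0.115 against 0.0480 and 0.0207, a log2 difference of 2.24 (1.63 to 2.88) and 2.47 (1.88 to 3.10). These cells held 78.7% and 68.9% of the macrophage Csf3 UMIs in 41.7% and 26.7% of the macrophages, shares that also depend on depth. With a UMI of Nos2, the inducible nitric oxide synthase, the level was 0.285 and 0.132 against 0.0903 and 0.0308. With Mrc1 the libraries differed, at 0.0306 against 0.178 in the Mir34a_F/F library and 0.0459 against 0.0457 in the other. In neutrophils, cells with a Ly6g UMI had 0.314 and 0.328 against 0.0872 and 0.207, so that Csf3 and Csf1 lay in opposite directions along Ly6g.

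Among the receptors, Csf1r (chr18:61100598-61132149, plus strand) belonged to macrophages. Their level was 5.01 (4.89 to 5.14) and 5.68 (5.57 to 5.79). The next highest were fibroblasts in the Mir34a_F/F library, 7.45-fold lower, and dendritic cells in the Mir34a_Mye_KO library, 7.09-fold lower. Dendritic cells had 0.544 (0.446 to 0.721) and 0.801 (0.711 to 0.925), and neutrophils 0.418 (0.350 to 0.509) and 0.565 (0.502 to 0.645). Dendritic cells and neutrophils were not separated in the Mir34a_F/F library, 0.38 (0.00 to 0.76) on the log2 scale. T cells (0.217 and 0.208), epithelial cells (0.196 and 0.304), B cells (0.187 and 0.168) and mast cells (0.261 and 0.213) were lower, and epithelial cells lay above mast cells in the Mir34a_Mye_KO library by 0.51 (0.15 to 0.89). At 1000 UMIs a cell, 37.8% (35.8 to 39.9) and 37.5% (35.6 to 39.4) of macrophages had a Csf1r UMI, and 2.16% (1.67 to 2.75) and 2.08% (1.57 to 2.70) of T cells. Without thinning these were 82.2% and 80.8% of macrophages, at 7252 and 11227 UMIs, and 7.55% and 13.6% of T cells.

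The level of Csf1r was set beside that of other macrophage genes. It was 11% and 10.7% of the summed level of 7 macrophage markers (among them C1qa, C1qb and Adgre1) in macrophages. It was lower in epithelial cells, 8.02% (7.34 to 8.82) and 8.56% (7.95 to 9.25), and in T cells, 8.07% (6.91 to 9.60) and 8.65% (7.68 to 10.1), by intervals that carry the counting error of Csf1r alone. Mast cells, at 10.6% (7.27 to 16.3) and 10.4% (8.09 to 14.5), and B cells, at 8.71% (6.61 to 12.1) and 10.2% (8.25 to 14.1), were not separated from macrophages. Dendritic cells were above them in both libraries, at 21.7% (17.8 to 28.8) and 26.1% (23.1 to 30.1), and neutrophils in the Mir34a_Mye_KO library, at 15.8% (14.0 to 18) beside 12.2% (10.2 to 14.9) in the other. In endothelial, erythroid and fibroblast cells and basophils the intervals of both libraries held the macrophage ratio. The part of free RNA from macrophages in the low values was not tested.

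Macrophages with an Mrc1 UMI had more Csf1r, 6.39 and 7.81 against 4.18 and 3.78, a log2 difference of 0.61 (0.54 to 0.68) and 1.05 (0.98 to 1.11). They made up 37.7% and 47.0% of macrophages and were deeper, with medians of 10915 and 18462 UMIs against 5854 and 6140. Csf1r was lower with Ly6c2, 4.40 and 4.73 against 5.18 and 5.89. For Arg1 the sign differed between the libraries, -0.09 (-0.15 to -0.02) and 0.08 (0.03 to 0.14). In dendritic cells Csf1r was higher with a UMI of Cd209a, a lectin of monocyte-related dendritic cells (0.990 and 1.06 against 0.453 and 0.718). It was lower with Siglech, a marker of plasmacytoid dendritic cells (0.227 and 0.324 against 0.582 and 0.883).

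Csf2ra (chr19:61223957-61228429, minus strand), the chain that binds GM-CSF, was shared by macrophages and neutrophils. Macrophages had 1.66 (1.58 to 1.75) and 1.46 (1.40 to 1.52), and neutrophils 1.55 (1.41 to 1.70) and 1.60 (1.5 to 1.72). The log2 difference of macrophages over neutrophils was 0.10 (-0.05 to 0.25) in the Mir34a_F/F library. Neutrophils were ahead by 0.14 (0.03 to 0.24) in the Mir34a_Mye_KO library, but this order was -0.07 when UMIs were summed over cells. Dendritic cells came next with 0.815 and 0.929, below both in each library. Mast cells (0.304 and 0.213), epithelial cells (0.298 and 0.296) and T cells (0.196 and 0.134) were low. Thinned cells gave a like result, as 15.3% and 13.2% of macrophages and 15.2% and 14.3% of neutrophils had a Csf2ra UMI, against 2.10% and 1.40% of T cells. Unthinned, these were 61.2% and 64.1%, 44.9% and 61.9%, and 7.32% and 9.14%.

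Although low per cell, epithelial cells held 32.5% and 23.2% of the Csf2ra UMIs, after macrophages with 46.1% and 50.6%. Of thinned cells, 2.73% (2.43 to 3.05) and 3.23% (2.88 to 3.60) of epithelial cells had one, a share that in the Mir34a_Mye_KO library lay above the 1.40% (0.988 to 1.93) of T cells. Csf2ra made up 12.2% and 8.32% of the summed macrophage markers in epithelial cells, against 3.64% and 2.74% in macrophages. This ratio was above that of macrophages in both libraries in other cell types as well, among them mast cells (12.3% and 10.4%), B cells (7.98% and 7.61%) and T cells (7.31% and 5.59%). In endothelial cells, erythroid cells and fibroblasts the intervals held the macrophage ratio.

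Csf2rb (chr15:78325752-78353847, plus strand), the shared beta chain, was shared by several cell types. Basophils had 7.16 (5.82 to 8.83) and 8.92 (7.77 to 10.3). Dendritic cells followed with 4.24 (3.96 to 4.58) and 4.99 (4.80 to 5.22), mast cells with 3.51 (3.24 to 3.82) and 3.93 (3.76 to 4.12), and macrophages with 3.07 (2.97 to 3.18) and 2.90 (2.83 to 2.98). Neutrophils had 1.82 (1.68 to 1.99) and 2.53 (2.40 to 2.66). Each step of this order exceeded counting error in both libraries. Counting error leaves out the spread between cells of a type. The basophil values rested on 48 and 40 cells, of which 33.3% and 37.5% had a Csf2rb UMI at 1000 UMIs a cell. The summed markers of neutrophils in basophils were 460 and 396, and those of mast cells 48.3 and 188. The part of either in the basophil value was not tested. T cells were at 0.278 and 0.182 and epithelial cells at 0.180 and 0.251. At 1000 UMIs a cell, 32.4% and 32.9% of dendritic cells, 29.7% and 31.0% of mast cells and 25.5% and 22.5% of macrophages had a Csf2rb UMI, against 2.63% and 2.12% of T cells. Unthinned shares were 76.7% and 82.4% in dendritic cells, 59.8% and 83.2% in mast cells, 73.0% and 69.0% in macrophages and 8.35% and 11.6% in T cells. The median depth was 6768 and 13564 UMIs in dendritic cells and 2952 and 8456 in mast cells.

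Within dendritic cells, Csf2rb was higher in cells with a UMI of Ccr7, the receptor of migrating dendritic cells (5.31 and 6.16 against 3.40 and 4.05). It was lower in cells with Siglech, 1.85 and 2.38 against 4.52 and 5.44. Csf2ra was lower with Siglech too, 0.300 and 0.342 against 0.877 and 1.03. In macrophages, Csf2rb went with Ly6c2, 3.82 and 4.45 against 2.87 and 2.54, which is the opposite of Csf1r. The mouse genome carries a copy of this gene, Csf2rb2, whose product serves interleukin-3 alone. The coding sequences were 95.2% identical over 2628 aligned bases, but none of the 910 stretches of 91 bases in the last 1000 bases of the Csf2rb transcript occurred in Csf2rb2. Csf2rb2 had its levels in mast cells (2.90 and 3.49) and basophils (3.63 and 5.13) more than in macrophages (0.908 and 0.863) or dendritic cells (0.755 and 0.867). How reads in shared stretches were assigned is not given in the sources used here, so the split of counts between these copies is uncertain.

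A GM-CSF receptor needs both chains. Without thinning, 50.1% and 55.1% of macrophages, 24.1% and 49.6% of neutrophils and 34.3% and 52.7% of dendritic cells had UMIs of Csf2ra and of Csf2rb. In mast cells this was 6.01% and 15.5%. After thinning, both chains were seen in 4.38% (3.56 to 5.32) and 3.55% (2.87 to 4.33) of macrophages, and the products of the single shares were 3.91% and 2.97%. In neutrophils it was 2.44% and 3.16% beside products of 2.24% and 2.99%. Mast cells had 0.583% (0.159 to 1.49) and 0.128% (0.00323 to 0.710) beside products of 0.694% and 0.753%, the second of which lay above its interval. That value rested on 1 cell in 1 draw. Without thinning, the products in mast cells were 5.64% and 13.8%, below the shares of 6.01% and 15.5%. Dendritic cells had 2.60% and 3.02% beside products of 2.06% and 3.06%.

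Csf3r (chr4:126024550-126044440, plus strand) was led by neutrophils, at 3.72 (3.52 to 3.94) and 6.13 (5.93 to 6.34). Cells called basophils had 1.04 (0.653 to 1.79) and 1.53 (1.17 to 2.21), from 26 and 75 UMIs. The same cells also had a summed level of 6 neutrophil markers of 460 and 396, against 1588 and 1039 in neutrophils and 12.8 and 11.2 in macrophages. Csf3r was 0.226% and 0.387% of these markers in basophils and 0.234% and 0.590% in neutrophils. The part of neutrophil RNA in the basophil value was not tested. Macrophages had 0.449 (0.409 to 0.499) and 0.519 (0.485 to 0.564), or 3.52% and 4.65% of the neutrophil markers. At 1000 UMIs a cell, 27.9% (25.1 to 30.7) and 42.8% (39.9 to 45.9) of neutrophils and 4.79% and 4.78% of macrophages had a Csf3r UMI, against 0.832% and 0.719% of T cells. Unthinned shares were 63.7% and 86.2% of neutrophils, 25.5% and 37.1% of macrophages and 2.33% and 4.53% of T cells.

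In neutrophils, Csf3r was higher with a Cxcr2 UMI, 4.45 and 6.91 against 3.08 and 4.65, a log2 difference of 0.53 (0.36 to 0.69) and 0.57 (0.45 to 0.70). Csf1 and Csf3r thus lay in opposite directions along Cxcr2. For Ly6g the Csf3r difference was -0.04 (-0.20 to 0.12) and 0.05 (-0.04 to 0.14). In macrophages, Csf3r went with Ly6c2, 0.611 and 0.747 against 0.405 and 0.466. The plot of levels with and without a marker gathers 8 of these contrasts.

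**Figure D2:**
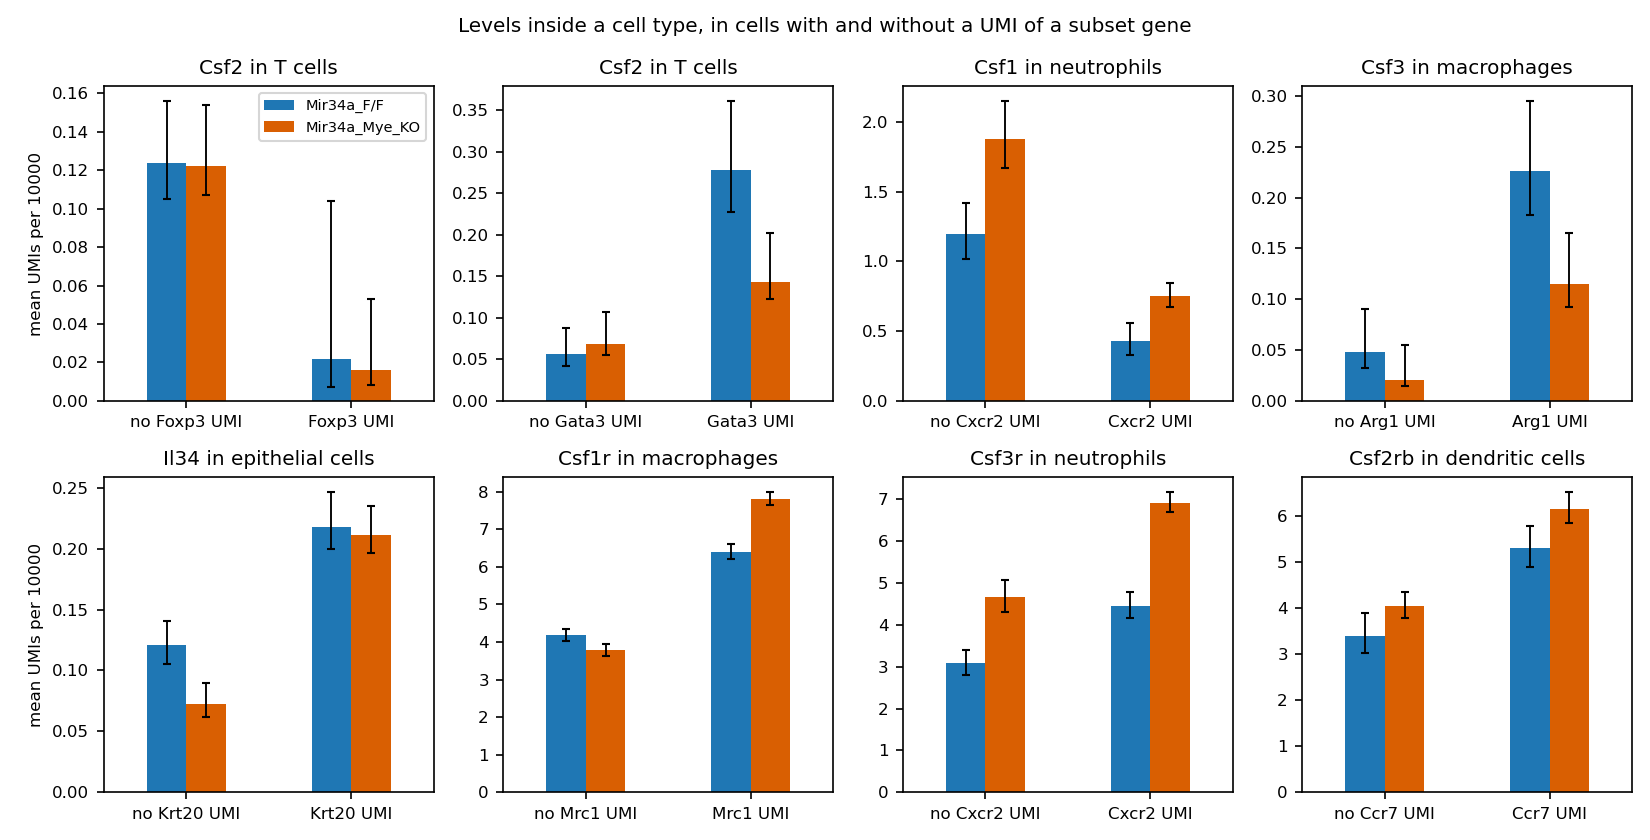
Levels of 7 of the genes inside a cell type, in cells without (left) and with (right) a UMI of a marker, as mean UMIs per 10000 on axes that start at 0 and differ between panels. Bars are the libraries by color, and lines are 95% counting intervals. Csf2 in T cells stood at 0.0219 and 0.0163 with Foxp3 and at 0.278 and 0.143 with Gata3, and Csf1r in macrophages at 6.39 and 7.81 with Mrc1.

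The share of each gene's UMIs by cell type combines the level with the number of cells and their depth. For Csf1, epithelial cells held 46.0% (44.2 to 47.7) in the Mir34a_F/F library and 23.7% (22.5 to 24.9) in the Mir34a_Mye_KO library. Neutrophils held 9.61% and 18%, mast cells 5.51% and 20%, and macrophages 27.0% and 22.6%. Basophils held 3.76% and 6.82%, although they were 0.236% and 0.215% of the cells. For Csf3, macrophages held 40.5% and 27.9% and neutrophils 24.1% and 46.5%. The cell type that held the most of each receptor was the same in both libraries. Macrophages held 82.8% and 87.2% of Csf1r UMIs and 52.6% and 48.8% of those of Csf2rb, and neutrophils 58.0% and 65.6% of those of Csf3r. Neutrophils and mast cells were deeper in the Mir34a_Mye_KO library, by 1.78-fold and 2.86-fold in the median against 1.25-fold in epithelial cells. Shares of UMIs thus move with depth as well as with levels. In a random draw of cells thinned to equal depth, Csf1 had 199 and 125 UMIs in epithelial cells and 68 and 58 in macrophages. It had 78 and 125 in neutrophils and 53 and 96 in mast cells. Each pair went in the same direction as its share of UMIs. The part of depth in the size of these shifts was not tested.

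**Figure D3:**
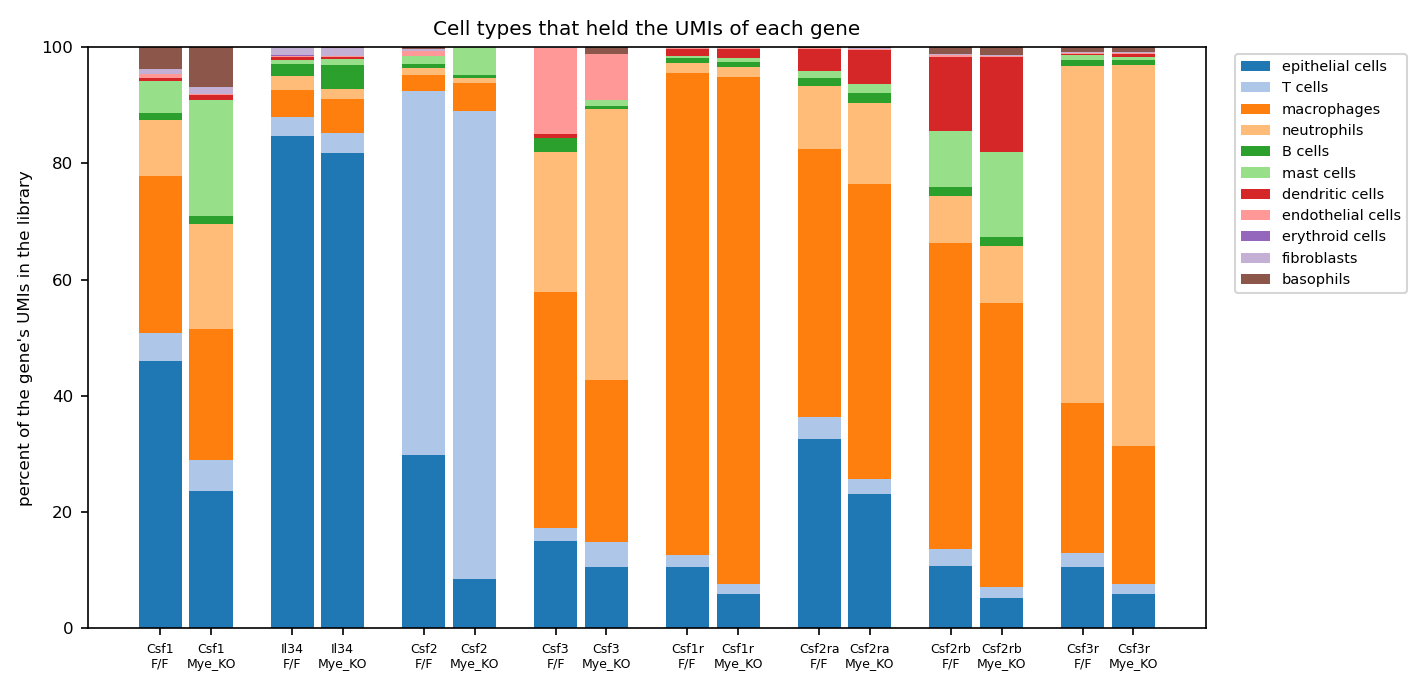
Percent of each gene's UMIs that each cell type held, as bars from 0 to 100% for each gene and library. Csf1 was divided among epithelial cells, macrophages, neutrophils and mast cells, while macrophages held 82.8% and 87.2% of Csf1r.

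The levels themselves were compared between the libraries as the log2 of Mir34a_Mye_KO over Mir34a_F/F. A gene was counted where its mean level of both libraries was at least 0.1, and past the fold where it differed by 1.5-fold (0.58 on the log2 scale). In macrophages none of the 5 counted genes was past the fold, beside 1.69% of all genes higher and 3.18% lower. In neutrophils 1 of 6 was higher and 0 lower, beside 5.40% and 11.4%. In mast cells 1 of 4 was higher and 0 lower, beside 3.78% and 14.3%. In epithelial cells 1 of 5 was higher and 0 lower, beside 1.34% and 4.04%. In T cells 0 of 5 were higher and 1 was lower, beside 1.66% and 7.76%. In dendritic cells none of 3 was past the fold, beside 4.96% and 6.50%. With so few genes a count of 1 cannot be set apart from these shares. In these 6 cell types the genes past the fold were Csf3r in neutrophils, Csf1 in mast cells, Csf1r in epithelial cells and Csf2rb in T cells. Under the alternatives Csf3r in neutrophils (0.69 to 0.80) and Csf1 in mast cells (0.67 to 1.11) remained past it, while Csf1r in epithelial cells (0.29 to 1.27) and Csf2rb in T cells (-0.63 to -0.39) fell short of it under some. Subtracting the background level was no option for Csf2rb in T cells, which are that background. It gave no ratio in epithelial cells, where Csf1r (0.196) and Csf2rb (0.180) lay under T cells (0.217 and 0.278) in the Mir34a_F/F library. Other ratios came past it under at least 1 alternative, among them Csf1r in dendritic cells (0.86) and neutrophils (0.82), both with the background level subtracted, Csf2rb in neutrophils (0.62) and epithelial cells (1.26), Csf1 in neutrophils (0.74) and Il34 in epithelial cells (-0.73). The other 5 cell types were left out of these counts. Ratios there could be large and rest on few UMIs, as for Csf3r in endothelial cells, 3.94 (0.81 to 9.49) from 1 and 18 UMIs, Csf1r in basophils, 2.03 (0.04 to 4.63) from 3 and 17, and Csf2rb in erythroid cells, -3.75 (-9.36 to -0.46) from 6 and 1. The summed neutrophil markers of endothelial cells were 7.57 and 33.0, and their part in the Csf3r value was not tested.

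Csf3r in neutrophils had the narrowest interval of these, 0.72 (0.63 to 0.81), a 1.65-fold higher level in the Mir34a_Mye_KO library. Of 7612 genes counted in neutrophils at the minimum level of 0.1, 97.0% had a lower ratio, and the median of all was -0.13. The neutrophils of the Mir34a_Mye_KO library also held more cells with a Cxcr2 UMI, 65.6% against 46.8%, at 7330 against 4107 UMIs a cell. The Csf3r level was higher in this library both in cells with and in cells without such a UMI. The summed neutrophil markers were lower in it, 1039 against 1588, and the part of these differences in the ratio was not tested. Under 9 other ways to process the data the ratio lay between 0.69 and 0.80.

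Csf1 went in different directions. It was higher in the Mir34a_Mye_KO library in mast cells, 0.91 (0.61 to 1.24), in neutrophils, 0.45 (0.23 to 0.68), and in basophils, 0.52 (0.18 to 0.86). In basophils the summed mast cell markers were 48.3 and 188, and their part in that value was not tested. The summed basophil markers, of which Ms4a2 is also on the mast cell list, were 12.4 and 15.4 in mast cells and 37.4 and 34.5 in basophils. Csf1 was 4.66% and 7.11% of them in mast cells, and their part in the mast cell ratio was not tested. The intervals held 0 in 2 other small cell types, at -1.32 (-2.68 to 0.02) in endothelial cells and -0.46 (-1.48 to 0.70) in fibroblasts. It was lower in macrophages, -0.42 (-0.61 to -0.22), and the intervals of epithelial cells, -0.13 (-0.31 to 0.04), and T cells, -0.02 (-0.38 to 0.34), held 0. Of the genes counted at the minimum level of 0.1, 99.2% had a lower ratio in mast cells, 90.7% in neutrophils and 8.67% in macrophages. Csf1 was not ranked among genes of like level. The ranges under 9 alternatives were 0.67 to 1.11, 0.41 to 0.74 and -0.51 to -0.31. In mast cells, 67 of the 995 UMIs of the Mir34a_Mye_KO library came from 1 cell.

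Csf3 in macrophages was lower in the Mir34a_Mye_KO library by a log2 ratio of -1.42 (-1.79 to -1.05), at a mean level under the minimum of 0.1, and between -2.07, in 1 draw of the thinning, and -0.61 under the alternatives. Both in macrophages with and in those without an Arg1 UMI the level was lower, 0.226 against 0.115 and 0.0480 against 0.0207, and cells with Arg1 made up 41.7% and 26.7% of the macrophages, a share that also depends on depth. In neutrophils Csf3 was higher, 0.47 (0.09 to 0.86). Csf2 in T cells had a ratio of -0.15 (-0.45 to 0.14), and -0.47 in the cells that scored highest for T cell markers. Thinned to 1000 UMIs it was -0.19 (-0.48 to 0.11) averaged over all draws, while 1 draw, with 33 and 15 UMIs, gave -0.95. Il34 in epithelial cells was -0.37 (-0.53 to -0.20), but 0.20 when UMIs were summed over the cells of the type, so that no direction is given for it.

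Csf1r in macrophages was 0.18 (0.13 to 0.22) higher on the log2 scale, a 1.13-fold difference, and 0.43 when UMIs were summed. Of 8593 genes counted at the minimum level of 0.1, 83.3% had a lower ratio. In cells with an Mrc1 UMI the level was 7.81 against 6.39, while in cells without one it was 3.78 against 4.18. The Mrc1 cells made up 37.7% and 47.0% of the macrophages, a share that also depends on depth. Csf1r was higher as well in epithelial cells, 0.64 (0.47 to 0.80), in dendritic cells, 0.56 (0.23 to 0.89), and in neutrophils, 0.43 (0.13 to 0.74). Under the alternatives the dendritic value ranged from 0.48 to 1.30. The highest came from 1 draw in thinning, with 14 and 43 UMIs, and the average over all draws was 0.55 (0.23 to 0.89). The thinned shares of cells, which come from the other draw, were 5.78% and 6.26%. The neutrophil value ranged from 0.36 to 0.82, the highest with the level of the background cell type subtracted. The epithelial value went with the summed macrophage markers of epithelial cells, which were 2.44 and 3.55, and with their median mitochondrial share, 11.2% and 18.3%. It lay between 0.29 and 1.27 under the alternatives, and the part of these differences was not tested.

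Csf2rb was higher in the Mir34a_Mye_KO library in neutrophils, 0.47 (0.33 to 0.61), epithelial cells, 0.48 (0.30 to 0.67), dendritic cells, 0.24 (0.12 to 0.35), and mast cells, 0.16 (0.03 to 0.30). In T cells, the background cell type for the receptors, it was lower, -0.61 (-0.89 to -0.33). The part of free RNA in that value was not tested. The epithelial value ranged from 0.15 to 1.26 under the alternatives and also went with the macrophage markers, of which Csf2rb was 7.38% and 7.08% in epithelial cells and 6.75% and 5.45% in macrophages, and their part was not tested. In macrophages the ratio was -0.08 (-0.14 to -0.02), and 0.24 when UMIs were summed. Csf2ra in neutrophils was 0.05 (-0.11 to 0.21). In T cells it was -0.55 (-0.88 to -0.22), where the summed neutrophil markers were 9.94 and 5.55 and their part was not tested, and in macrophages -0.19 (-0.28 to -0.10), which became 0.04 when UMIs were summed. Neither chain has a direction in macrophages that held under both ways of averaging. The plot of ratios gives these values side by side.

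**Figure D4:**
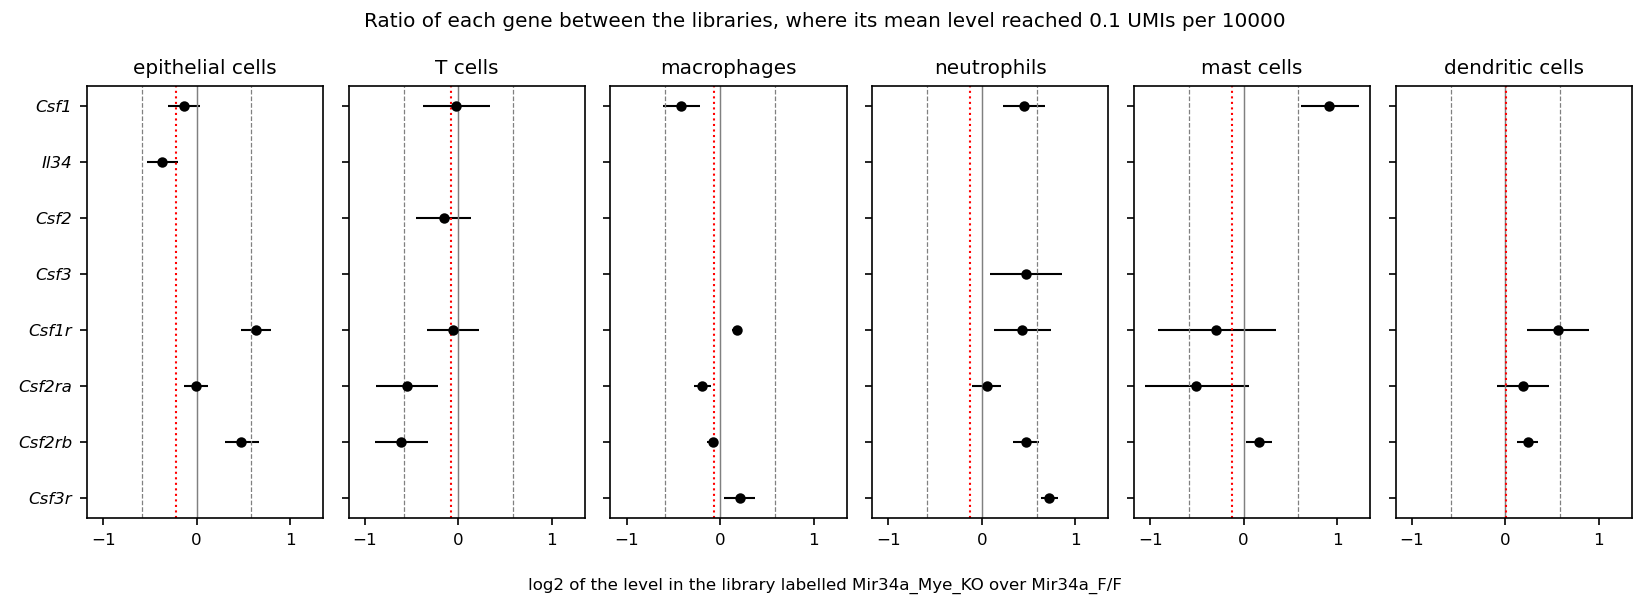
Log2 of the level in the Mir34a_Mye_KO library over that in the Mir34a_F/F library in 6 cell types, for genes with a mean level of at least 0.1, with 95% counting intervals as bars, equal levels as a grey line, 1.5-fold as dashed lines and the median of all genes as a dotted red line. Csf3r in neutrophils stood at 0.72 and Csf1 in mast cells at 0.91, while Csf1 in macrophages stood at -0.42.

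The genes that work with these receptors were taken from a list of 44, made up of the shared beta chain family, CSF1R signalling, the JAK-STAT branch and transcription factors of the lineages. In macrophages 39 of the 44 were counted and none was past 1.5-fold in either direction, beside 1.69% of all genes higher and 3.18% lower, with a median log2 ratio of 0.06 beside -0.06 for all genes. The largest differences among the better detected were in Sdc1, a heparan sulfate proteoglycan, -0.50, Irf8, a factor of monocytes and dendritic cells, 0.45, and the Src family kinase Fyn, 0.33. The summed epithelial markers of macrophages were 19.9 and 15.6, and their part in the Sdc1 value was not tested. Tyrobp, the adaptor that carries signals of myeloid receptors, went from 14.2 to 11.6 (-0.30). Jak1 (0.32) and Cebpb (-0.27) completed the 6. Spi1, which encodes PU.1, had 2.02 and 2.26, and Socs3, the inhibitor of cytokine signalling, 1.53 and 1.73.

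In neutrophils 36 of the 44 were counted, 4 were past the fold higher and 2 lower, beside 5.40% and 11.4% of all genes, with a median of 0.30 beside -0.13 for all genes. This background depends on the minimum level of 0.1. At a minimum of 0.5, more of all genes were past the fold higher than lower, as the last section gives. The list was not set against that background. Higher were Jak2, a kinase used by Csf2rb and Csf3r, from 2.86 to 5.31, 0.89 (0.79 to 1.0), and Inpp5d, the phosphatase SHIP1, from 1.24 to 2.34, 0.91 (0.75 to 1.08). Pik3cd (0.70) and Plcg2 (0.63) were higher at low levels. Lower were Sdc1 (-0.66) and Socs1 (-0.71). Jak1 (0.55), the kinase Pim1 (0.54) and the Src family kinase Lyn (0.53) lay just under the fold, and Klf4, a factor of monocytes, was at -0.52. Socs3 had 0.732 and 0.905, and Spi1 2.41 and 2.94.

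Of the other ligands of the beta chain, Il5 had 85 UMIs in all, of which 25 and 54 were in T cells. Il3 had 33, of which 32 were in 6 mast cells of the Mir34a_Mye_KO library. The interleukin-3 alpha chain Il3ra had 3616 UMIs and the interleukin-5 alpha chain Il5ra 864.

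To see which genes had a pattern most like each of the 8, Pearson's r of log2(level + 0.1) was taken over the 22 pools of cell type and library against 7050 genes. The pools come from 2 libraries and differ in cell number and depth, so r is a description. Csf1r was most like Ifi207 (0.927), Clec4a1 (0.923) and Hexa (0.913), and Csf3r like Arg2 (0.966), Gpat3 (0.964) and Clec4d (0.963). Csf2ra was most like Il1rn (0.911), Lrrc25 (0.894) and Pilra (0.889), and Csf2rb like Tyrobp (0.927), Osgin2 (0.922) and St3gal1 (0.920). Among the ligands, Il34 was most like Ror2 (0.968), Robo2 and Ror1 (both 0.925), all highest in fibroblasts, which had 22 and 26 Il34 UMIs. Csf2 was most like Cd96 (0.888), Nkg7 (0.872) and Klrg1 (0.853), all highest in T cells. Its highest levels, 0.109 and 0.0978 in T cells, were near the 0.1 added before the log, so its r rests on small differences. Csf1 was most like Gpsm1 (0.904), Hacd4 (0.882) and the histidine decarboxylase gene Hdc (0.881), all highest in basophils. For Csf3 these were Rasip1 (0.877), Rnd1 (0.855) and Hlx (0.845), all highest in endothelial cells, where 10 and 11 cells had a Csf3 UMI.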

How the data were processed

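Per the labels, the methods and the submitters' processing notes, the authors aligned reads with Cell Ranger 7.2.0 to mm10 with added miR-34a features, removed doublets with Scrublet before deposit, integrated both libraries in Seurat for clustering and assigned the 11 cell types. The deposited values are natural log values, ln(1 + 10000 × UMIs / the cell's total), not batch-corrected. Whole UMIs were recovered from them (largest deviation 1.5e-10), and all 38883 cells were kept. The methods name a selection of cells under 25% mitochondrial RNA. By the recovered UMIs 87.8% of Mir34a_F/F and 77.8% of Mir34a_Mye_KO cells were under it, and leaving out the rest was 1 of the alternatives. Cells of a type were averaged per library as UMIs per 10000. Intervals are 95%: exact Poisson for UMIs, gamma for mean levels, exact binomial for shares, and a beta interval on effective counts for ratios. No test was made between libraries. A count of 0 was read as a limit of 3 counts. Shares of cells were also computed with each cell thinned to 1000 UMIs, without the shallower cells, by 1 random draw. The alternative with thinned cells used a random draw of its own. No doublet caller was run again. Total UMIs were 147109016 in the Mir34a_F/F library and 193133086 in the Mir34a_Mye_KO library.

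The genes, lists and alternatives were chosen with earlier results of these data known. Named were the 8 genes, the 6 list genes with the largest ratio at a level of at least 0.5 in macrophages and in neutrophils, 8 listed genes in any case, and the 3 genes most like each of the 8. Other genes of the list past the fold (Pik3cd, Plcg2, Socs1 and Sdc1 in neutrophils) were named after their values were seen. Promoters matched 4 of the 8 genes. Il34, Csf3, Csf1r and Csf2rb had no entry. Interval, ratio and counting steps were tested on simulated data. The simulation drew Poisson counts at a common rate per gene, as the intervals assume. It did not cover UMIs clumped in few cells, as for Csf3 in endothelial cells, where intervals can be too narrow. Tools were Python 3.11.15, NumPy 2.4.6, SciPy 1.17.1, pandas 2.3.3, Biopython 1.88 and Matplotlib 3.10.9.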

Additional observations from a re-analysis of the deposited data

Results flagged for a closer look

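Csf1 and Csf2rb had ratios between the libraries whose counting intervals lay on opposite sides of 0 in different cell types. Csf1 was higher in the Mir34a_Mye_KO library in neutrophils (0.45 on the log2 scale) and mast cells (0.91) and lower in macrophages (-0.42). Csf2rb was higher in epithelial cells (0.48), neutrophils (0.47), mast cells (0.16) and dendritic cells (0.24) and lower in T cells (-0.61) and macrophages (-0.08). T cells are the background cell type for the receptors. The summed macrophage markers of epithelial cells were 2.44 and 3.55, and T cells had summed neutrophil markers of 9.94 and 5.55 and summed epithelial markers of 26.3 and 14.8, whose part was not tested. The macrophage value of Csf2rb was 0.24 when UMIs were summed over cells. With 1 library per genotype the difference between cell types was not tested.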

How the results depend on the processing

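Of 221 ratios of a gene between the libraries under another setting, 177 moved by less than their counting interval and 3 turned direction. Of 118 differences between cell types, 97 stayed and 2 turned. Levels and shares moved more often: 45 of 128 levels, 53 of 80 shares of a gene's UMIs and 15 of 24 counts of genes past the fold lay outside their interval or, for counts, beyond 1.5 times. A value counts as turned only where its own interval lay off 0. Among values whose interval held 0, the sign also changed for Csf3 in endothelial cells (up to 0.06), Csf1 in epithelial cells (up to 0.13) and Csf1 in neutrophils over mast cells of the Mir34a_Mye_KO library (down to -0.28). Summing UMIs over the cells of a type, which weights deep cells, gave Csf1 in neutrophils 0.74, Il34 in epithelial cells 0.20 (turned), Csf1r in macrophages 0.43, Csf2ra in neutrophils 0.25, Csf2rb in dendritic cells 0.36, and the turned values of Csf2ra (0.04) and Csf2rb (0.24) in macrophages and of Csf2ra in neutrophils over macrophages in the Mir34a_Mye_KO library (-0.07). In 1 draw of 1000 UMIs a cell, Csf2 in T cells was -0.95, Csf2rb in dendritic cells 0.09, and Csf1 in neutrophils over mast cells of the Mir34a_F/F library -0.02 (turned). Averaged over all possible draws, an alternative added after these values were seen, they were -0.19, 0.23 and 0.38. Keeping cells with at least 500 genes and under 10% mitochondrial RNA gave Il34 in epithelial cells -0.73, keeping cells that scored highest for their own markers gave 0.00 for it and -0.47 for Csf2 in T cells, and totals without immunoglobulin, mitochondrial and ribosomal RNA gave -0.13 for Il34 and 0.26 for Csf1r in macrophages. At a minimum level of 0.5, genes past the fold were 59 higher and 91 lower in macrophages, 241 and 152 in neutrophils, 101 and 73 in dendritic cells, 108 and 232 in mast cells, 80 and 195 in T cells, and 35 and 134 in epithelial cells. At the minimum of 0.1 they were 145 and 273, 411 and 866, 411 and 538, 316 and 1193, 148 and 693, and 121 and 364. Summed UMIs gave 334 and 452 in macrophages and 1243 lower in epithelial cells. The cause of these differences was not tested. The differences between cell types and the ratios outside the leading type were added after the data were seen. Shares of UMIs have no value of their own under settings that change only the averaging or the totals. Depth limits what can be said of Csf2, Csf3 and Il34, and of cell types with under 100 cells. No paired analysis was possible because each genotype was 1 library and the labels give no shared replicate numbers.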
